A study of Arabidopsis thaliana with 6 samples.

Results

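Leaf transcripts of wild type (WT) Arabidopsis thaliana in high light were set beside those of WT in low light, which took 3 of the 6 libraries of the series. The WT high light group was 2 libraries from rosette leaves of 30-day-old Columbia plants after 48 hours of high light, and the WT low light group was 1 library from rosette leaves of 40-day-old Columbia plants, called normal light in the series title. All plants grew in a greenhouse in long days, and neither the light intensities nor the hour of harvest are known here. The same libraries exist for ibm1-3, a mutant of the histone demethylase gene IBM1 (2 in high light, 1 in low light), and stand beside the WT values at the end. The labels do not say whether the libraries came from separate plants or pools.

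High light is known as light beyond what photosynthesis can use, and whether these plants met it is not known here. Leaves are known to respond by building fewer light-harvesting antenna proteins, by dissipating energy as heat through the xanthophyll cycle and the PsbS protein, by making antioxidants such as ascorbate, tocopherol and carotenoids, and often by making anthocyanins, the red screening pigments of the flavonoid pathway. Blue and UV light receptors, the COP1 ligase and the factor HY5 carry the light signal, while PIF factors promote growth in shade. Many of these genes are also under the circadian clock, so their transcripts change over the day.

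High light library 1 held 12121246 estimated fragments and the low light library 15425082 reads, while the depth of high light library 2 was not given. Levels in high light are FPKM, as deposited (fragments scaled by gene length and library size). Levels in low light are RPKM, computed here from the reads in the same way. There the smallest value above 0 is 15 reads, and whether a 0 means fewer reads or a gene left out is not known. The 3 libraries stand in 3 tables that were normalized separately, so each difference below is a log2 difference of levels that were centred on the median of their own library. The median level was 10.4 and 11.2 FPKM in the high light libraries and 11.7 RPKM in the low light library. No test of light was made, because light cannot be told apart from age or from table, and low light has a single library. A gene was called higher or lower where both high light libraries were at least 2-fold from low light in the same direction, and words such as higher and lower describe these 3 libraries. In leaf RNA, fewer cells of a type and less RNA per cell cannot be told apart.

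Among 16872 nuclear genes compared, 1840 (10.9%) were called higher and 2600 (15.4%) lower in WT high light than in WT low light, and 511 and 759 of the genes passed 4-fold. The high light libraries differed from each other by an SD of 0.68 on the log2 scale, with 10.5% of genes past 2-fold, against SDs of 1.33 and 1.24 for high light libraries 1 and 2 minus low light. Spearman's rho across these genes, which are not independent, was 0.96 between the high light libraries, and 0.83 and 0.86 between each of them and low light. Without library 2 the count called higher was 2804, since 1 library then decides. Among the genes compared, 21 were past 2-fold in opposite directions in the high light libraries. The median difference of all genes compared was -0.07 in library 1 and -0.09 in library 2, and the lists below are read against those values and against 10.9% and 15.4%.

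Short genes stood lower in high light. In the eighth of genes with the shortest models, of at most 957 bases, the median difference was -0.81 and -0.76, with 8.58% called higher and 33.3% lower. In the eighth with the longest, of at least 2840 bases, it was 0.31 and 0.12, with 9.96% higher and 7.97% lower. The part of length in the differences of short genes was not tested. The count with the trend over length removed is given beside a list where it differs by 2 or more calls.

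**Figure D1:**
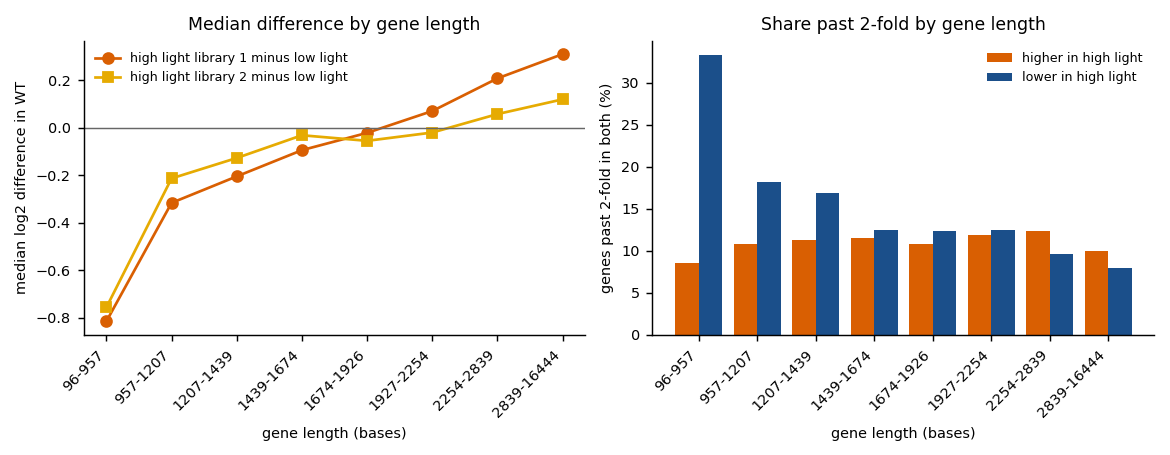
Left, median log2 difference of WT high light library 1 (circles) and library 2 (squares) minus WT low light in 8 groups of genes by length in bases. Right, the percentage of genes in each group at least 2-fold higher (orange) and lower (blue) in both high light libraries, where the shortest group has 33.3% lower and 8.58% higher.

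The lists of genes with known roles stood on different sides of low light, as the plot of list medians shows. Genes of dark and sugar starvation, the Calvin cycle, photorespiration and photoprotection were on the high side in WT high light. Genes of heat shock, glucosinolates, shade response and anthocyanins were on the low side. The members of these lists were chosen with earlier results of these data known, so the counts describe the lists and do not test them.

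**Figure D2:**
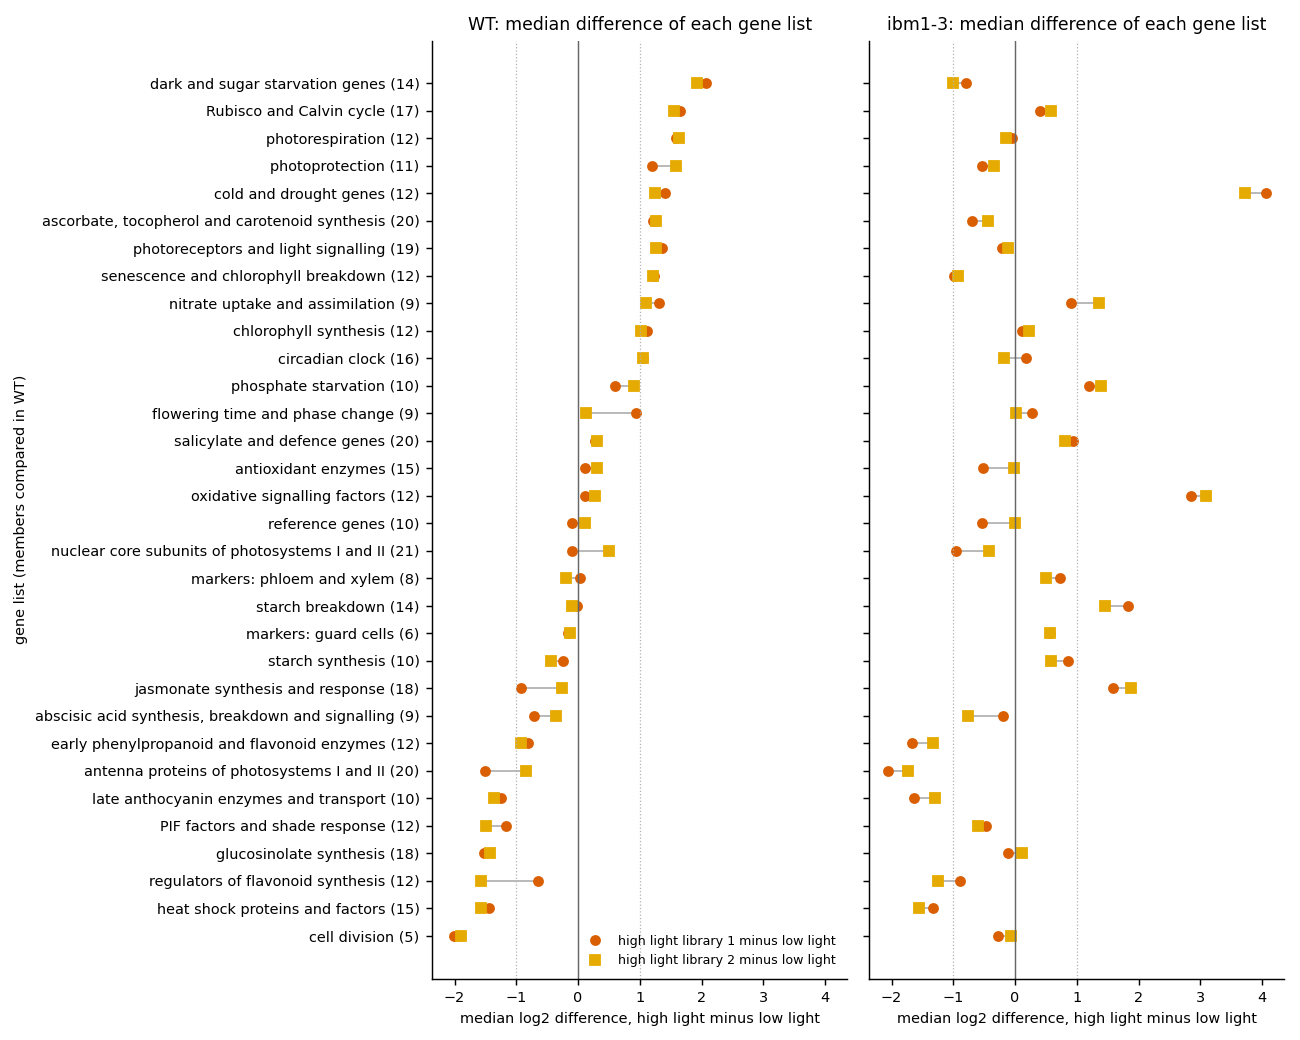
Median log2 difference, high light minus low light, of each gene list in WT (left) and ibm1-3 (right), for high light library 1 (circles) and library 2 (squares). Dotted lines mark 2-fold, and numbers in parentheses count the members compared in WT, where dark and sugar starvation genes stand highest at 2.08 and 1.93.

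Photoprotection genes stood higher in WT high light. Of 12 members 11 were compared, 7 were called higher and 0 lower, all 11 were above 0 in both libraries, and the median was 1.19 and 1.58. ELIP1 (AT3G22840; chromosome 3, 8084405 to 8085669, reverse strand, TAIR10 as deposited), an early light-induced protein that binds free chlorophyll, stood at 139 and 259 FPKM in the high light libraries against 17.9 RPKM (285 reads) in low light. Its difference was 3.12 and 3.92, with a 95% counting interval of 2.94 to 3.31 in library 1 (exact Clopper-Pearson). Its close relative ELIP2 stood at 37.2 and 70.4 FPKM in high light and was listed at 0 in low light. The bases before ELIP1 are shown with matches to a G-box (CACGTG), which light signalling factors such as HY5 and the PIFs are known to bind, and to an I-box (GATAAG or its complement) in capitals.

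ELIP1, chr3:8085670-8085919, reverse strand: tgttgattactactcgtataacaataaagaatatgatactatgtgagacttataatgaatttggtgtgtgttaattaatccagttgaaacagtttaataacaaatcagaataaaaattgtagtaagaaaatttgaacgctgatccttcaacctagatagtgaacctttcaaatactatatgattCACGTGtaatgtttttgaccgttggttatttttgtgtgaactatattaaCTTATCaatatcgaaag

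This promoter is the 250 bases before the start that RefSeq gives on TAIR10.1, and a G-box stood in 6.49% of 27443 promoters cut the same way and in 2 of the 12 promoters of the list. NPQ1, the violaxanthin de-epoxidase that makes zeaxanthin, stood at 53.7 and 45.3 FPKM against 5.15 RPKM in low light, a difference of 3.54 and 3.19. ZEP, which turns zeaxanthin back, was also higher, at 698 and 522 FPKM in high light and 171 RPKM in low light. The thylakoid kinase STN7 was at 230 and 204 FPKM against 68.7 RPKM, and PGR5, needed for cyclic electron flow, at 217 and 330 FPKM against 115 RPKM. For these genes both high light libraries lay above the low light library. The related chlorophyll-binding family members OHP2 and SEP2 were called higher too, at differences of 1.19 and 2.06 for OHP2 and of 1.79 and 1.24 for SEP2. Those not called were PSBS at 683 and 1220 FPKM against 476 RPKM (difference 0.68 and 1.41), PGRL1A at 0.82 and 1.45, OHP1 at 75.9 and 137 FPKM against 70.7 RPKM, and the terminal oxidase PTOX at 0.24 and 0.39. With the trend over length removed 9 members were called higher.

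Antenna genes went both ways, with more members called lower than higher in WT high light. Of 20 members compared 9 were called lower and 4 higher, and the median was -1.50 and -0.85. Their levels summed to 5209 and 9503 FPKM in the high light libraries against 17166 RPKM in low light, sums set across tables normalized separately. LHCB1.5 (AT2G34420; chromosome 2, 14522524 to 14523568), a major antenna protein of photosystem II, stood at 382 and 530 FPKM against 3477 RPKM, a difference of -3.02 and -2.66. LHCB3 was at 84.1 and 115 FPKM against 535 RPKM, LHCB6 at 96.9 and 135 FPKM against 611 RPKM, and LHCA4, of photosystem I, at 216 and 359 FPKM against 1703 RPKM. Each of them was lower in both high light libraries, as were LHCB4.2 and LHCA1.

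Among the antenna genes called higher, LHCB4.3, which replaces other LHCB4 forms when light is strong, stood at 191 and 256 FPKM in high light against 53.7 RPKM. LHCA6 was at 58.0 and 67.6 FPKM against 9.32 RPKM, a difference of 2.80 and 2.92. LHCA5 was at 143 and 227 FPKM against 70.1 RPKM, and LHCB1.4 at 18.5 and 46.3 FPKM against 7.46 RPKM. LHCA5 and LHCA6 are known to link photosystem I to the NDH complex of cyclic electron flow. LHCB1.1 and LHCB1.2, with differences of -2.66 and -2.17 and of -4.78 and -4.14, and LHCB1.3, at -0.39 and 0.42, have near-identical copies, and how reads were shared between such copies is not known. LHCB2.2 was lower, at -3.32 and -1.85, and LHCB2.1 was at -0.33 and 1.03. Several abundant members were not called either. LHCB4.1 stood at 443 and 1262 FPKM in high light against 1059 RPKM in low light and LHCA2 at 741 and 1392 FPKM against 958 RPKM, each below low light in library 1 and above it in library 2 on the centred scale. LHCB5 differed by -1.66 and -0.76, LHCA3 by -1.34 and -0.93, and LHCB2.3, which overlaps another gene, by -0.97 and -0.14.

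**Figure D3:**
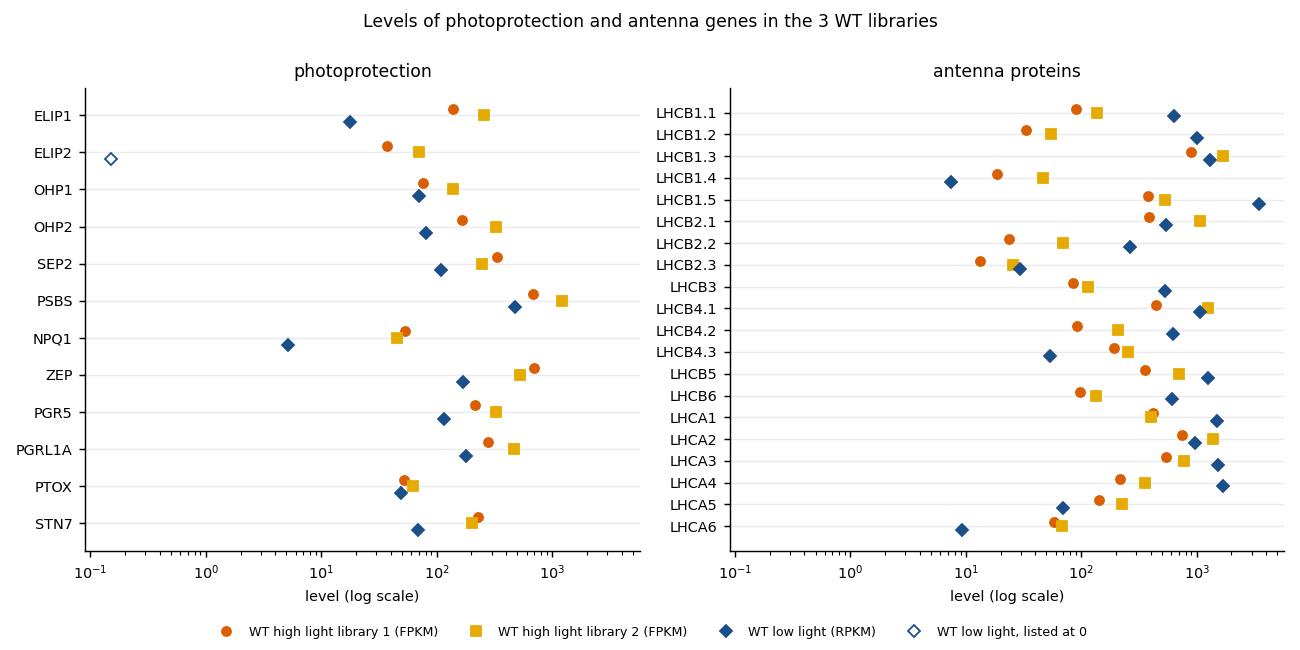
Levels of photoprotection genes (left) and antenna genes (right) in WT high light library 1 (circles, FPKM), WT high light library 2 (squares, FPKM) and WT low light (diamonds, RPKM) on a log axis. An open diamond at the left edge marks a gene listed at 0 in low light, and ELIP1 stands at 139 and 259 FPKM in high light against 17.9 RPKM.

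The nuclear core subunits of both photosystems were mostly within 2-fold of low light. Of 21 members 3 were called higher and 2 lower, and the median was -0.09 and 0.50. PSBO1 and PSBO2, which stabilize the manganese cluster that splits water, were called higher, PSBO2 at 724 and 893 FPKM in high light against 300 RPKM. PSBQ2 was lower at 213 and 329 FPKM against 1005 RPKM, and PSAO was lower, at -1.34 and -1.25. These genes are short, with a median length of 958 bases, and with the trend over length removed 5 were called higher and 1 lower.

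Genes of carbon fixation stood higher in WT high light. Of 17 Rubisco and Calvin cycle members 15 were called higher and 0 lower, with a median of 1.64 and 1.55, and their levels summed to 34365 and 50663 FPKM against 12127 RPKM in low light. RBCS1A, a small subunit of Rubisco, stood at 8597 and 18229 FPKM against 3082 RPKM, and RCA, which reactivates Rubisco, at 7923 and 8511 FPKM against 3568 RPKM. RBCS1B was at 1636 and 2727 FPKM against 253 RPKM, a difference of 2.85 and 3.49, while RBCS2B and RBCS3B have near-identical copies. PRK, which makes the acceptor of carbon dioxide, was at 1076 and 1113 FPKM against 233 RPKM. CP12-2, which ties PRK to GAPDH in the dark, was at 1493 and 1176 FPKM against 324 RPKM. The members not called were FBA1 (-0.12 and 0.77) and CFBP1 (1.39 and 0.66).

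Photorespiration, which recovers the carbon lost when Rubisco fixes oxygen, went the same way, with 10 of 12 members called higher, 0 lower and a median of 1.59 and 1.64. SHM1, the mitochondrial serine hydroxymethyltransferase, stood at 1839 and 2132 FPKM in high light against 530 RPKM in low light. GLU1, the ferredoxin-dependent glutamate synthase, was at 591 and 486 FPKM against 140 RPKM, and the glycine decarboxylase subunits GLDP1 and GLDP2 differed by 1.81 and 1.96 and by 1.77 and 2.21. PGLP1, which starts the pathway, stood at 425 and 231 FPKM against 1.53 RPKM (33 reads), but it has a copy of 98.7% identity, AT5G36790, so its value depends on how reads were assigned. GLDT and HPR1 were not called, at 0.77 and 0.31 and at 0.46 and 0.34.

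Chlorophyll and carotenoid synthesis were on the same side. Of 13 chlorophyll synthesis members 12 were compared, 5 were called higher and 0 lower, all 12 were above 0 in both libraries, and the median was 1.12 and 1.02. CAO, which makes chlorophyll b, was at 76.2 and 79.1 FPKM in high light against 16.1 RPKM in low light. GUN4, which activates magnesium chelatase, differed by 2.58 and 3.03, though its model overlaps another gene and the strand setting of the counting was not given. The chelatase subunit CHLH was at 188 and 187 FPKM against 69.2 RPKM, and the cyclase CRD1 differed by 1.12 and 1.52. PORA was low in high light, at 0.52 and 0.64 FPKM, and listed at 0 in low light.

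Of 20 genes of ascorbate, tocopherol and carotenoid synthesis 11 were called higher and 1 lower, with a median of 1.22 and 1.26. BCH1, a carotene hydroxylase, stood at 79.0 and 129 FPKM in high light against 14.4 RPKM in low light, and LYC, the lycopene cyclase, at 73.6 and 92.1 FPKM against 21.7 RPKM. VTE1, the tocopherol cyclase, was at 49.3 and 44.1 FPKM against 11.1 RPKM. CCD4, which cleaves carotenoids, was higher as well, at 194 and 233 FPKM against 45.3 RPKM. The ascorbate pathway has a pair of GDP-L-galactose phosphorylases, and they went opposite ways. VTC2 stood at 349 and 472 FPKM against 144 RPKM, whereas VTC5 stood at 6.94 and 8.82 FPKM against 47.1 RPKM, a difference of -2.60 and -2.36.

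Antioxidant enzymes stood on both sides. Of 16 members 15 were compared, 4 were called higher and 4 lower, and the median was 0.12 and 0.31. CAT2, the peroxisomal catalase of photosynthetic leaves, stood at 1429 and 2392 FPKM in high light against 516 RPKM in low light, and CAT1 at 91.2 and 155 FPKM against 14.4 RPKM. CAT3 went the other way, at 742 and 1067 FPKM against 3060 RPKM. The thylakoid ascorbate peroxidase TAPX was higher by 1.53 and 1.57, and the chloroplast peroxiredoxin 2CPA by 1.04 and 2.18. The cytosolic enzymes APX1 and CSD1 were lower, APX1 at 127 and 318 FPKM against 870 RPKM and CSD1 at 85.6 and 123 FPKM against 373 RPKM, and so was the mitochondrial MSD1. CSD1 has one of the shortest models, of 873 bases.

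Oxidative signalling genes, which reactive oxygen is known to raise and which are mostly transcription factors, were not higher as a group. Of 12 members 2 were called higher and 3 lower, and the median was 0.11 and 0.28. WRKY40, a factor of defence and chloroplast stress, stood at 29.4 and 26.2 FPKM in high light against 278 RPKM in low light, a difference of -3.08 and -3.35. RRTF1 was at 7.17 and 3.44 FPKM against 49.5 RPKM and ERF6 at 2.60 and 2.21 FPKM against 16.4 RPKM. RRTF1 overlaps another gene. ERF104 was higher at 70.2 and 56.4 FPKM against 17.5 RPKM, and the kinase gene OXI1 by 1.37 and 1.08. ZAT10 at -1.12 and 0.18 and ZAT12 at 0.58 and 0.29 were not called.

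Genes of anthocyanin synthesis stood lower in WT high light than in WT low light. Of the 10 late anthocyanin enzymes and transporters 5 were called lower and 0 higher, with a median of -1.25 and -1.37. DFR (AT5G42800; chromosome 5, 17164093 to 17166032, reverse strand), the dihydroflavonol reductase that opens the anthocyanin branch, stood at 4.18 and 3.95 FPKM in high light against 59.1 RPKM (1385 reads) in low light. Its difference was -3.66 and -3.84, with a 95% counting interval of -4.01 to -3.33 in library 1. The bases before DFR hold 1 G-box, in capitals, as those before ELIP1 do, while DFR was lower and ELIP1 higher in high light.

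DFR, chr5:17166033-17166282, reverse strand: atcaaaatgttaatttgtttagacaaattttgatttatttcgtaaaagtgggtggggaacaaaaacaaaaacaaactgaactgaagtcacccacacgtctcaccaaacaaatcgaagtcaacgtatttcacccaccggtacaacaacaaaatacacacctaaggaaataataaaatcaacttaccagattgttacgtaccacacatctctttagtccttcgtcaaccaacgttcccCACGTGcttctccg

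A G-box stood in 3 of the 10 promoters of this list. LDOX, the next enzyme, was at 4.42 and 2.59 FPKM in high light against 32.9 RPKM in low light, and the glycosyltransferase UF3GT at 2.39 and 2.79 FPKM against 10.8 RPKM. GSTF12, which carries anthocyanins to the vacuole, was at 4.71 and 9.24 FPKM against 35.0 RPKM. The acyltransferase 3AT2 was lower, at -2.82 and -2.08 and 3AT1 differed at -0.23 and -0.87, and both have near-identical copies. UGT75C1 at 0.05 and -0.13, 5MAT at -0.48 and -0.39 and BGLU10 at 95.2 and 108 FPKM against 53.4 RPKM were not called. SCPL10 lay below low light in library 1 and above it in library 2 (-0.46 and 1.87).

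Of 13 early phenylpropanoid and flavonoid enzymes 12 were compared, 5 were called lower and 2 higher, and the median was -0.81 and -0.92. TT4, chalcone synthase, stood at 10.6 and 21.6 FPKM in high light against 82.9 RPKM in low light. CHIL, which helps chalcone synthase, was lower, at -2.41 and -2.96, TT7 at -1.18 and -1.43, PAL2 at -1.24 and -1.43 and UGT78D1 at -2.03 and -1.79. The flavonoid glycosyltransferases UGT89C1 and UGT78D2 were the members called higher. UGT89C1 stood at 42.6 and 39.5 FPKM against 10.6 RPKM and UGT78D2 at 35.0 and 33.0 FPKM against 14.7 RPKM. PAL1, C4H, 4CL3, TT5 and FLS1 were below low light in both libraries without a call. F3H stood at 14.6 and 14.1 FPKM in high light and was listed at 0 in low light. In ibm1-3 F3H was also listed at 0 in low light, against 66.4 and 57.9 FPKM in high light. Whether F3H was left out of the low light values is not known.

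Regulators of flavonoid synthesis stood on both sides, with 3 MYB activators lower and the repressor MYBL2 higher. Of 17 members 12 were compared, 5 were called lower and 2 higher, and the median was -0.65 and -1.58. MYB75 (PAP1), which turns on anthocyanin genes, stood at 10.2 and 7.89 FPKM in high light against 41.2 RPKM in low light, and its relative MYB90 at 11.6 and 6.98 FPKM against 62.1 RPKM. MYB113 was lower, at -1.38 and -1.85. MYBL2 (AT1G71030), a repressor of the same genes, was at 223 and 287 FPKM against 33.8 RPKM, a difference of 2.89 and 3.14. LBD39, another known repressor, was at 8.89 and 11.5 FPKM against 0.79 RPKM, from 17 reads, with a counting interval of 2.93 to 4.47 in library 1. LBD38 and CPC, also repressors, were lower, at -2.02 and -1.31 and at -1.40 and -1.91. TTG1, a core activator, lay above low light without being called, at 57.3 and 94.5 FPKM against 42.8 RPKM. TT8, MYB114, LBD37 and MYB4 were not called, and GL3, MYB11, which overlaps another gene, MYB12 and MYB111 were listed at 0 in low light, while EGL3 had no value in library 1. With the trend over length removed 3 of the regulators were called lower.

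**Figure D4:**
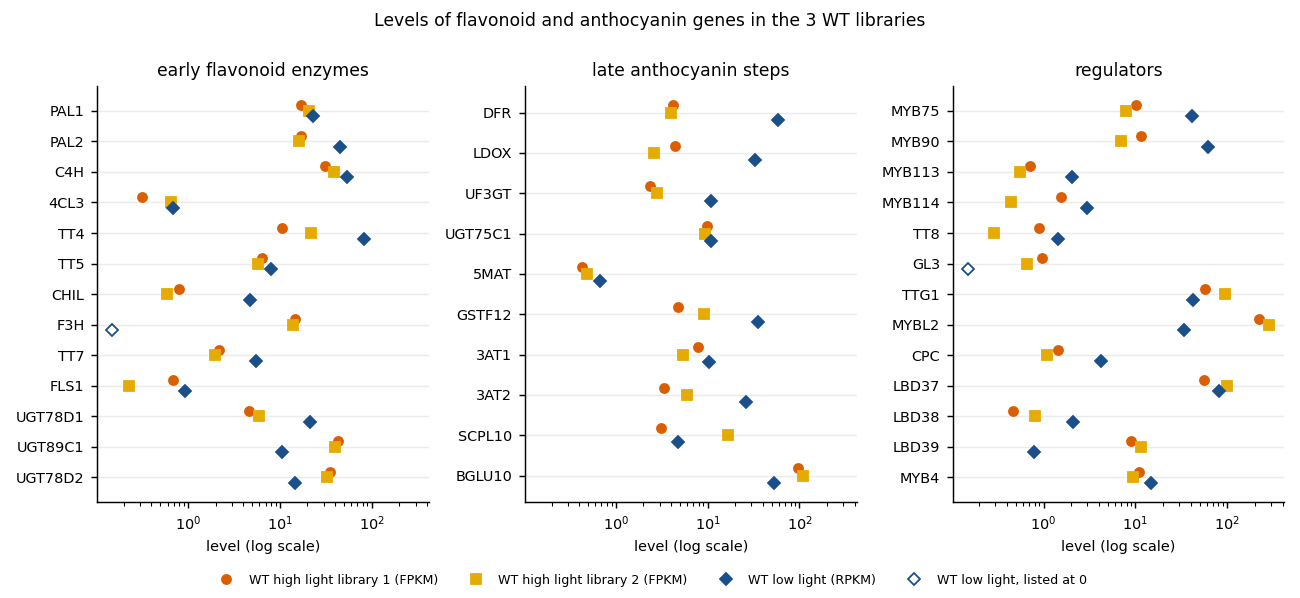
Levels of early flavonoid enzymes, late anthocyanin steps and their regulators in WT high light library 1 (circles, FPKM), WT high light library 2 (squares, FPKM) and WT low light (diamonds, RPKM) on a log axis. Open diamonds at the left edge mark genes listed at 0 in low light, and MYBL2 stands at 223 and 287 FPKM in high light against 33.8 RPKM.

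Most genes of the list of light receptors and light signalling stood higher, though not the phytochrome genes or UVR8. Of 19 members 12 were called higher and 0 lower, with a median of 1.35 and 1.27. HY5, the factor that turns on light-induced genes, stood at 37.6 and 19.3 FPKM in high light against 4.92 RPKM in low light, and its partner HYH at 120 and 89.2 FPKM against 19.1 RPKM. The cryptochrome genes CRY1 (102 and 106 FPKM against 36.5 RPKM), CRY2 (1.35 and 1.24) and CRY3 (3.22 and 2.91) were all called. RUP1 and RUP2, which switch off the UV-B receptor, differed by 2.14 and 2.16 and by 2.73 and 2.45. SPA1 and SPA4, partners of the COP1 ligase, were called higher, and COP1 itself was at 1.33 and 0.86. BBX25, a B-box factor, was at 81.1 and 203 FPKM against 15.7 RPKM. The phytochrome genes were not called, PHYA at -0.08 and -0.43 and PHYB at -0.93 and -1.21, and neither was the UV-B receptor gene UVR8, at -0.24 and -0.62.

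Shade genes stood lower. Of 14 members of the list of PIF factors and shade response 12 were compared, 6 were called lower and 0 higher, and the median was -1.17 and -1.48. HB-2 (ATHB2), a classic shade-induced factor, stood at 33.1 and 34.2 FPKM in high light against 232 RPKM in low light, a difference of -2.65 and -2.71. The auxin gene IAA19 was at 2.73 and 1.79 FPKM against 22.2 RPKM, and HFR1, which holds the shade response back, at 2.44 and 2.21 FPKM against 9.55 RPKM. PIF4 stood at 16.9 and 16.6 FPKM against 55.8 RPKM, with PIF5 at -0.77 and -1.14 and PIF3 at -0.72 and -0.59. PIF1 was above low light in both libraries, at 0.91 and 0.79. The auxin synthesis genes YUC8 and YUC9 were called lower from 2 and 8 fragments in library 1 against 21 and 74 reads.

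Clock genes differed member by member. Of 18 members 16 were compared, 8 were called higher and 2 lower, and the median was 1.06 in both libraries. RVE1 (AT5G17300; chromosome 5, 5690226 to 5692992, reverse strand), a morning factor that links the clock to auxin, stood at 121 and 131 FPKM in high light against 1.88 RPKM (56 reads) in low light. Its difference of 6.17 and 6.18 was the highest among genes of at least 50 reads and 5 FPKM when ranked by the smaller of the 2 values. The core morning genes CCA1, at 284 and 225 FPKM against 56.4 RPKM, and LHY, at 294 and 219 FPKM against 74.1 RPKM, were also higher. So were the evening complex genes ELF3, at 22.1 and 16.2 FPKM against 1.42 RPKM, ELF4, at 24.3 and 17.1 FPKM against 4.92 RPKM, and LUX, at 4.12 and 2.51 FPKM against 1.05 RPKM, the last with a model that overlaps another gene. GRP7 was at 161 and 129 FPKM against 44.9 RPKM, and RVE8 was called as well.

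GI, which acts in the evening, was lower at 0.92 and 1.05 FPKM against 4.53 RPKM, and the morning gene PRR9 was lower, at -1.01 and -1.40. TOC1 at 0.56 and 0.36, PRR7 at 0.03 and -0.67, LNK1 at -0.54 and -1.06, LNK2 at 0.62 and 0.14, ZTL at 1.08 and 0.82 and GRP8 at -0.45 and -1.49 were not called. PRR5 stood at 39.6 and 23.3 FPKM and FKF1 at 4.69 and 3.45 FPKM in high light, and both were listed at 0 in low light. Genes called higher and genes called lower both included morning and evening genes, and the hour of harvest, which was not given, cannot be told apart from light here. The promoters of RVE1 and CCA1, which hold a G-box, and of LUX, which holds the evening element (AAATATCT or its complement) that CCA1 and LHY bind, are shown with matches to any of the 5 motifs searched in capitals.

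RVE1, chr5:5692993-5693242, reverse strand: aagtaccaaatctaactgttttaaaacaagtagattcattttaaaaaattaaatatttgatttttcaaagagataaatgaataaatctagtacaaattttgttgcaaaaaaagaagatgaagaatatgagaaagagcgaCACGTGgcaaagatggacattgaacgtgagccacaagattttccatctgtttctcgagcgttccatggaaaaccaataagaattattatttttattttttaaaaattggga
CCA1, chr2:19245341-19245590, forward strand: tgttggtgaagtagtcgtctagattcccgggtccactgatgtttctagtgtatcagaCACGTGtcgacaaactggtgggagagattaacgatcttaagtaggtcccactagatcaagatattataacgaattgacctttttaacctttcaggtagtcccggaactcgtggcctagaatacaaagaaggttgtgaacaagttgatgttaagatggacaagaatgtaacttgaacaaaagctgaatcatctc
LUX, chr3:17182792-17183041, forward strand: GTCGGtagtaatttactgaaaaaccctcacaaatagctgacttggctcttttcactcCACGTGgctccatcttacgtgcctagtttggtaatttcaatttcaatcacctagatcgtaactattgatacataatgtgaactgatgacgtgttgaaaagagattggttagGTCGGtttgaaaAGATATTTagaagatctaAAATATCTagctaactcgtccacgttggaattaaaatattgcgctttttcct

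The evening element stood in 7 of the 18 clock promoters (38.9%) against 4.79% of all 27443 promoters, and a G-box in 6 (33.3%) against 6.49%. Among genes called higher 8.15% had an evening element, against 4.85% of genes called lower and 5.02% of all genes compared. For the G-box these shares were 8.48%, 8.12% and 7.58%. The other motifs searched were the I-box, the core of the heat shock element (GAANNTTC) and the core of the drought and cold element DRE (CCGAC or its complement). The heat shock core stood in 8.80% of genes called higher, 12.5% of genes called lower and 9.61% of genes compared, the DRE core in 13.0%, 14.2% and 13.3%, and the I-box in 15.8%, 10.8% and 12.3%. In all 27443 promoters the shares were 9.55% for the heat shock core, 11.97% for the DRE core and 12.3% for the I-box. The search covered both strands of the 250 bases. The RefSeq start of CCA1 lies upstream of the start deposited by the authors, which is 19246681, while the bases shown end at 19245590. A match of letters is a description and not a binding site.

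**Figure D5:**
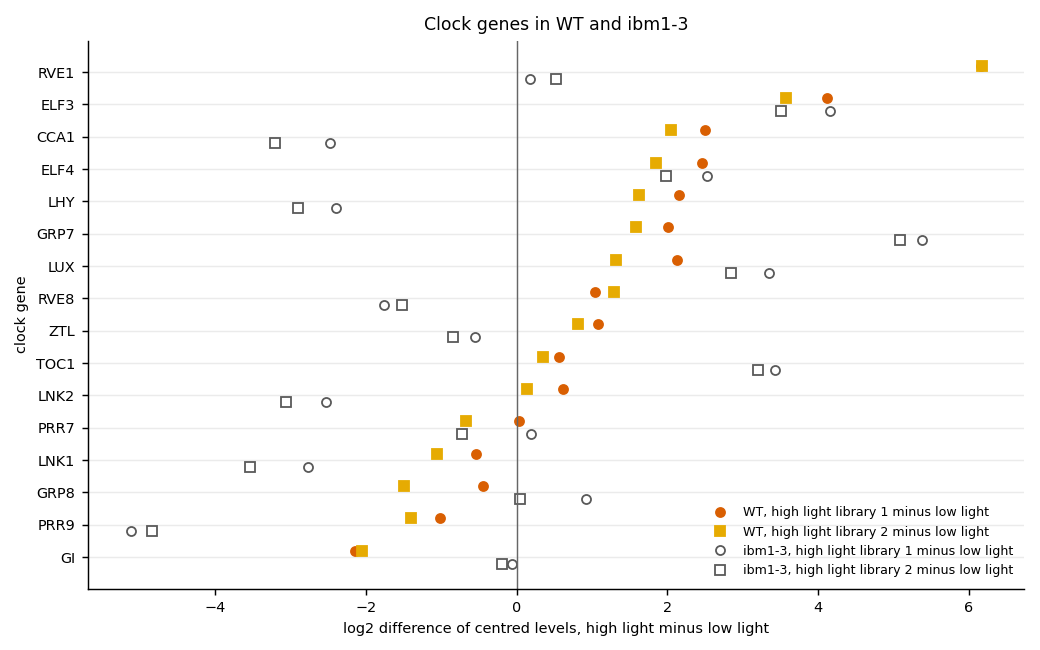
Log2 difference, high light minus low light, of the 16 clock genes compared, in WT (filled, orange and yellow) and ibm1-3 (open), for high light library 1 (circles) and library 2 (squares). RVE1 stands at 6.17 and 6.18 in WT, and CCA1 at 2.50 and 2.06.

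Genes known for dark and sugar starvation were higher in WT high light. Of 15 members 14 were compared, 11 were called higher and 0 lower, all 14 were above 0 in both libraries, and the median was 2.08 and 1.93. DIN10 (AT5G20250; chromosome 5, 6833659 to 6836782), a raffinose synthase gene that darkness induces, stood at 148 and 124 FPKM in high light against 2.63 RPKM (112 reads) in low light. The trehalose phosphate synthase-like genes TPS9 (72.7 and 47.7 FPKM against 3.47 RPKM), TPS8, TPS10 and TPS11 were all called, TPS11 at 105 and 104 FPKM against 17.8 RPKM. BGAL4, a beta-galactosidase, was at 86.3 and 115 FPKM against 7.06 RPKM, and SEN1 at 172 and 166 FPKM against 34.2 RPKM. ASN1, the dark-induced asparagine synthetase, was low throughout, at 2.05 and 1.56 FPKM against 0.75 RPKM (22 reads). With the trend over length removed 13 were called higher. DIN2, a glucosidase gene, stood at 13.1 and 9.69 FPKM and was listed at 0 in low light.

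Starch genes went both ways. Of 10 starch synthesis members 3 were called higher and 3 lower, with a median of -0.24 and -0.44, and of 14 starch breakdown members 4 were higher and 4 lower, with a median of -0.01 and -0.09. BAM3, the main leaf beta-amylase of the night, stood at 1539 and 900 FPKM in high light against 114 RPKM in low light, and its inactive relative BAM9 at 204 and 273 FPKM against 12.7 RPKM. SEX4, which removes phosphate from starch, was lower at 12.2 and 11.1 FPKM against 62.8 RPKM, as were ISA3, DPE1 and DPE2. In synthesis APL1 was at 130 and 116 FPKM against 19.8 RPKM, while the sugar-induced genes APL3 (12.8 and 11.7 FPKM against 39.6 RPKM) and GPT2 (5.92 and 11.3 FPKM against 36.7 RPKM) were lower.

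Nitrogen assimilation was on the high side, with 5 of 9 members compared called higher, 0 lower and a median of 1.31 and 1.09. NIA1 (AT1G77760; chromosome 1, 29235721 to 29239484), a nitrate reductase gene, stood at 173 and 184 FPKM in high light against 4.11 RPKM (200 reads) in low light. NIA2, the other nitrate reductase, was at 934 and 894 FPKM against 280 RPKM. The ammonium transporter AMT1;1 was at 157 and 256 FPKM against 4.37 RPKM. GLN2, the chloroplast glutamine synthetase, was at 772 and 723 FPKM against 348 RPKM, and the nitrite reductase NIR1 at 80.7 and 71.1 FPKM against 34.7 RPKM. Phosphate starvation genes had 2 of 10 called higher, PLDP2 and SPX1, and 0 lower, with a median of 0.59 and 0.90.

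Senescence genes stood higher, with age and light not to be told apart. Of 14 members 12 were compared, 6 were called higher and 1 lower, and the median was 1.22 and 1.22. NYC1, a chlorophyll b reductase, was at 251 and 238 FPKM in high light against 32.4 RPKM in low light, PAO, which opens the chlorophyll ring, at 239 and 255 FPKM against 68.2 RPKM, and the factor NAP at 484 and 433 FPKM against 150 RPKM. NAC092 (ORE1) differed by 1.38 and 1.62. WRKY53 was the member called lower, at 31.3 and 33.0 FPKM against 121 RPKM, and it overlaps another gene. The late markers SAG12 and SAG29 were at most 0.20 FPKM in high light and listed at 0 in low light.

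Heat shock genes stood lower. Of 21 members 15 were compared, 10 were called lower and 0 higher, and the median was -1.44 and -1.58. HSP70 (AT3G12580; chromosome 3, 3991117 to 3993886), an inducible chaperone, stood at 7.23 and 6.26 FPKM in high light against 196 RPKM (7607 reads) in low light, a difference of -4.60 and -4.91. HSFA2, which keeps the heat response going, was at 3.29 and 1.99 FPKM against 64.6 RPKM, and MBF1C at 25.3 and 10.9 FPKM against 208 RPKM. HSP101, which dissolves protein aggregates, was at 3.94 and 3.04 FPKM against 21.8 RPKM. HSFA1A, the master factor, was not called, at 0.06 and -0.13. Small heat shock proteins were low or listed at 0 in every library, with HSP17.4 called lower from 4 fragments against 17 reads.

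Cold and drought genes stood higher in part. Of 15 members 12 were compared, 7 were called higher and 0 lower, with a median of 1.41 and 1.24, while over the members with at least 50 reads in low light the median of the mean difference was 0.45 and 2 were called higher. COR15A, which protects chloroplast membranes in the cold, stood at 46.7 and 32.0 FPKM in high light against 3.33 RPKM (36 reads) in low light, and RD29A at 39.0 and 21.3 FPKM against 7.35 RPKM. COR47 was at 292 and 269 FPKM against 126 RPKM, while ERD10 was at -0.12 and -1.25 and RAB18 at -0.79 and -2.15. In abscisic acid metabolism the breakdown enzymes CYP707A1 and CYP707A3 were lower, CYP707A3 at 2.44 and 2.70 FPKM against 17.5 RPKM. Of 9 members of that list compared 3 were lower and 1, the phosphatase HAB1, was higher.

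Salicylate and defence genes went both ways. Of 20 salicylate and defence genes 6 were called higher and 4 lower, and the median was 0.27 and 0.31. ALD1, which starts pipecolic acid synthesis, stood at 44.6 and 58.8 FPKM in high light against 2.97 RPKM (72 reads) in low light, and FMO1, which completes the signal, at 13.7 and 18.7 FPKM against 2.84 RPKM. The defence factor WRKY70 was at 183 and 217 FPKM against 47.7 RPKM and PR2 at 1400 and 1461 FPKM against 463 RPKM, while PR1 was lower, at -1.19 and -1.10. WRKY18 and CBP60G were also lower, at -1.96 and -2.56 and at -1.57 and -1.84.

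Jasmonate genes were on the low side in WT high light, with 7 of 18 members compared called lower, 2 higher and a median of -0.93 and -0.26. OPR3, an enzyme of jasmonate synthesis, stood at 164 and 133 FPKM in high light against 961 RPKM in low light, and LOX4, a lipoxygenase gene, differed at -3.20 and -3.29. The response repressors JAZ1, JAZ5, JAZ7 and JAZ8 were called lower, JAZ5 at 37.3 and 34.9 FPKM against 180 RPKM. With the trend over length removed 5 were lower and 3 higher. Of 18 glucosinolate synthesis genes 10 were called lower and 0 higher, with a median of -1.53 and -1.42. Genes of the indole branch, made from tryptophan, were among them. CYP81F2 stood at 10.9 and 13.1 FPKM against 149 RPKM, CYP79B2 at 6.40 and 7.22 FPKM against 50.4 RPKM, and the factor MYB51 at 18.8 and 22.8 FPKM against 69.1 RPKM. The aliphatic branch factors MYB28 and MYB29 were not called, at 0.71 and 1.07 and at 0.67 and 0.86.

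Flowering genes were compared for 9 of 14 members, of which 3 were called higher and 1 lower. FT, the mobile flowering signal, stood at 29.5 and 27.6 FPKM in high light against 9.24 RPKM in low light, and SOC1, its target, at 100 and 98.5 FPKM against 26.9 RPKM. SPL4, a target of the microRNA that marks the juvenile phase, was lower, at -1.50 and -2.45. FLC, which represses flowering, was at 0.17 and 0.01 FPKM in high light, the lower being the value that stands for no fragment, and at 3.40 RPKM (52 reads) in low light. Of 5 cell division genes compared 4 were lower and 1, TSO2, was higher, all 5 from 17 to 257 reads in low light.

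Reference genes had 0 of 10 called in either direction, with a median of -0.09 and 0.11. UBQ10 was at 0.14 and -0.10, PP2AA3 at 0.08 and 0.22 and ACT2 at 0.33 and 0.51, while EF1A at -1.33 and -0.92 and YLS8 at -1.68 and -0.82 lay below low light. The leaf markers RBCS1A, RCA and LHCB1.3 were abundant in all 3 libraries. Guard cell markers had 1 of 6 higher and 1 lower, and phloem and xylem markers 0 of 8 in either direction, with SUC2 at -2.00 and -0.97. Summed levels of the guard cell markers were 52.8 and 52.0 FPKM against 67.9 RPKM, and those of phloem and xylem 72.2 and 116 FPKM against 209 RPKM. Epidermis and trichome markers summed to 127.5 and 220.4 FPKM against 251.9 RPKM, with 1 of 4 called lower, FDH, while CER1 was listed at 0 in low light. Flower markers summed to 1.9 and 0.9 FPKM in high light and 0 in low light, with AP3 at the value that stands for no fragment, and seed markers had no value. Of the root markers SHR alone was compared, at 0.72 and 0.91.

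The genes with the highest differences in WT high light had varied roles. After RVE1, DIN10 and NIA1 came AT3G15450, annotated as an aluminum induced protein, at 433 and 525 FPKM in high light against 161 reads in low light, a 44.2-fold and 49.8-fold difference. AMT1;1 and the DUF2358 gene AT1G79510, at 114 and 178 FPKM against 4.22 RPKM, followed. The others were GPX7 (80.2 and 250 FPKM against 4.04 RPKM), CCOAMT, the cellulose synthase-like gene CSLB03, AT1G49500, AT4G16680 and the xylosidase gene XYL4 (120 and 114 FPKM against 6.49 RPKM). XYL4 was the last of the 12, at 20.7-fold in library 1. GPX7 overlaps another gene.

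Among the lowest genes MAF5, a relative of FLC, stood at 0.51 and 0.04 FPKM in high light against 84.6 RPKM (651 reads) in low light. The phosphotransmitter gene AHP4 was at 0.21 and 0.30 FPKM against 22.6 RPKM, and the gene TDR1, of the integrase-type DNA-binding family, was 38.6-fold and 31.1-fold lower. AT5G28630, a glycine-rich protein, was 28.9-fold and 52.0-fold lower, and AT3G53830, of the RCC1 family, at 1.36 and 1.43 FPKM against 49.9 RPKM. The others were AT1G06475, AT2G40205 (ribosomal protein L41), AT5G12940, AT2G14290, AT4G01380, AT5G38310 and AT5G28610. In high light library 1 AHP4, AT1G06475 and AT5G12940 had 1 estimated fragment each, MAF5 and AT5G38310 had 2, and AT4G01380 had 3. TDR1 had 7, while AT3G53830 had 35 and AT5G28630 had 45.7. The size of a difference from so few fragments is uncertain, with a counting interval of -11.9 to -4.09 for AHP4 in library 1. Several of the 12 have short models, MAF5 and AHP4 among them with 499 and 522 bases, and AT1G06475, AT2G40205 and AT4G01380 overlap other genes. The deposited model of MAF5 starts at 26000866, while the bases before its RefSeq start end at 25997503, further upstream. How low light reads were assigned to the MAF5 model is not known, so its level there depends on that model.

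Genes listed at 0 in low light were abundant in high light in 5 cases chosen by their level. GER1, a germin-like protein gene that overlaps a neighbour, stood at 503 and 1705 FPKM, AT1G51400, a small photosystem II protein whose gene also overlaps a neighbour, at 313 and 208 FPKM, and COL1, a CONSTANS-like factor, at 160 and 170 FPKM. AT1G09500 was at 133 and 164 FPKM and AT4G16410, which overlaps a neighbour as well, at 148 and 124 FPKM. In ibm1-3 low light AT1G09500 had 451 reads and the other 4 were listed at 0 too, in the same table. Of 68 chloroplast genes with values 12 were called higher and 24 lower, and of 30 mitochondrial genes 0 and 17, with medians of -0.28 and -0.84 and of -1.79 and -2.10. These transcripts mostly lack the long tails used to select messenger RNA, so their levels depend on library preparation.

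The values of ibm1-3 stand beside those of WT in the plot of list medians. In ibm1-3 1603 of 16790 genes (9.55%) were called higher and 1424 (8.48%) lower in high light than in low light, again with 1 low light library and no test. Of 1772 genes called higher in WT and compared in both genotypes, 348 (19.6%) were called higher and 166 (9.37%) lower in ibm1-3. Of 2389 called lower in WT, 461 (19.3%) were lower and 399 (16.7%) higher in ibm1-3. IBM1 itself stood at 13.8 and 8.34 FPKM in WT high light against 12.6 RPKM in WT low light and was not called. In ibm1-3 it stood at 7.46 FPKM in high light library 2 and at 9.20 RPKM in low light, both below the WT libraries of the same tables, and in high light library 1 it stood higher than in WT. Its level over the whole gene therefore does not check the genotype labels.

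Antenna, heat shock and anthocyanin genes were on the low side in both genotypes. The antenna list had 11 of 20 members called lower in ibm1-3, against 9 in WT, and heat shock 9 of 15, against 10 in WT. The late anthocyanin list had 6 of 10 lower in ibm1-3, against 5 in WT, with medians of -1.64 and -1.30 in ibm1-3. Photoprotection had 1 of 12 higher and 2 lower in ibm1-3, where ELIP1 differed by 0.16 and 1.06. The Calvin cycle had 3 of 17 higher and 1 lower, with a median of 0.40 and 0.59. Oxidative signalling factors had 11 of 12 higher in ibm1-3, with a median of 2.84 and 3.08, and cold and drought genes 7 of 9 higher, with a median of 4.05 and 3.72. Whether the light difference differs between the genotypes was not tested.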

How the data were processed

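RNA sequencing of rosette leaves was deposited in 3 tables that were normalized separately. The first high light table holds estimated counts of fragments and FPKM values deposited by the authors, and 0.01 stands where no fragment was counted. The second high light table holds values whose unit the header does not name, read here as FPKM of the authors because they have the same placeholder and like sums. The low light table holds a signal deposited by the authors in which every value is a whole multiple of 1 step per library (within 0.01 steps), taken as 1 read, and the smallest listed value is 15 reads. The submitters' processing notes name Bowtie2 and the TAIR10 build, with no counting program, and the strand setting is not known here. The labels name 2 RNA kits and 2 library protocols, and which sample had which is not said. The first high light table carries no replicate number and was taken as high light library 1. The descriptions of some high light samples name another table than their titles do, and the titles were used.

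Reads were divided by the gene lengths of the first high light table. Nuclear genes with values in all 3 libraries, no placeholder and at least 15 low light reads were kept, and the log2 levels were centred on each library's median (Python 3.11.15, pandas 2.3.3, NumPy 2.4.6, SciPy 1.17.1). Intervals are exact Clopper-Pearson at 95%, cover counting error only and exist for library 1 alone. No p-value was computed, because light goes with age and with table.

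Named are the 12 highest and 12 lowest genes of at least 50 low light reads (for the highest, also a mean of at least 5 FPKM in high light), ranked by the smaller difference, the 5 genes listed at 0 in low light with the highest levels, up to 5 members of each list with the largest differences, and all members of the photoprotection, antenna, flavonoid and clock lists. Other members are named to account for a list. The members and lists were chosen with earlier results of these data known. Copies of at least 95% identity and overlapping genes are marked as uncertain. Promoters are the 250 bases before gene starts in RefSeq (TAIR10.1), matched by gene ID. Alternatives covered centring, ranks, filters, a pseudocount, length, copies, the fold threshold and each high light library left out.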

Additional observations from a re-analysis of the deposited data

Results flagged for a closer look

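Several lists had median differences of opposite sign in the 2 genotypes in both high light libraries. These differences between WT and ibm1-3 were not tested, and the low light libraries are 1 per genotype. Values are the median over members of the mean log2 difference, high light minus low light. Over all genes compared in WT this median was -0.08.

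Above 0 in WT and below 0 in ibm1-3 were dark and sugar starvation genes (2.14 in WT and -0.83 in ibm1-3), photoprotection (1.51 and -0.58), ascorbate, tocopherol and carotenoid synthesis (1.35 and -0.67), photoreceptors and light signalling (1.31 and -0.19), senescence and chlorophyll breakdown (1.21 and -0.86) and antioxidant enzymes (0.23 and -0.27). Below 0 in WT and above 0 in ibm1-3 were jasmonate genes (-0.56 and 1.84), starch synthesis (-0.37 and 0.72), starch breakdown (-0.05 and 1.60) and guard cell markers (-0.15 and 0.57). These lists had at least 5 members compared, and the epidermis and trichome markers, with 4, stood at -0.57 in WT and 0.78 in ibm1-3. Antioxidant enzymes, starch synthesis, starch breakdown and guard cell markers each had as many members called higher as lower in WT. The WT median of starch breakdown lay near that of all genes compared.

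Named genes past 2-fold in opposite directions in the 2 genotypes are given by their mean difference, WT before ibm1-3. In the clock these were CCA1 (2.28 and -2.84), LHY (1.89 and -2.65) and RVE8 (1.17 and -1.64). In pigment and light protection they were MYBL2 (3.02 and -2.74), GUN4 (2.80 and -1.74), CAO (2.38 and -2.34), CCD4 (2.34 and -2.07), CAT2 (1.95 and -2.06), ZEP (1.93 and -1.56) and UGT78D2 (1.32 and -2.34).

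Starvation and senescence genes among them were BGAL4 (3.93 and -1.78), TPS11 (2.67 and -1.47), SEN1 (2.41 and -1.93), NAP (1.72 and -3.13) and WRKY53 (-1.81 and 2.12). The starch genes were ISA3 (-1.63 and 1.72), GPT2 (-2.06 and 2.06) and SEX4 (-2.33 and 1.47). Hormone and stress genes were ALD1 (4.22 and -1.50), CYP707A1 (-2.11 and 2.81), JAZ5 (-2.21 and 3.21), WRKY18 (-2.26 and 1.87), OPR3 (-2.59 and 1.39), CYP707A3 (-2.66 and 6.68), ERF6 (-2.66 and 2.41), JAZ8 (-2.75 and 3.12), RRTF1 (-3.21 and 5.35), WRKY40 (-3.22 and 2.98) and LOX4 (-3.25 and 3.60).

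Among the other genes were AT1G49500 (4.59 and -3.13), CSLB03 (4.43 and -1.89), GASA9 (-1.79 and 1.42), AT5G38310 (-5.21 and 1.34), AT5G28630 (-5.28 and 1.95), AT2G14290 (-5.71 and 3.27) and AT1G06475 (-6.34 and 1.60). GUN4, RRTF1, WRKY53 and AT1G06475 overlap other genes.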

How the results depend on the processing

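The counts of 1840 genes higher and 2600 lower moved by over 1.5 times in some settings. With percentile ranks 1620 genes were lower (and 1497 higher), by a cut of 15 percentile points instead of 2-fold. With genes listed at 0 in low light set to 14 reads and high light placeholders kept, 4668 were lower. There a gene at 0 in low light and at the placeholder in high light can count as lower through these fill-in values. With fragments of library 1 and no length 3046 were higher, and at 4-fold 511 were higher and 759 lower. Leaving out 1 high light library gave 2410 to 2804 higher and 3422 to 3740 lower, with a single library left to pass the threshold. Without high light library 2 the higher count was 2804. The size factor, upper quartile, trimmed mean, pseudocount, length, 50-read and near-copy settings stayed within 1.5 times, and the near-copy setting was chosen after seeing the data. Of 182 named genes called, 115 kept their call in every setting run for them and 67 lost it in at least 1. Of these, 65 lost it with percentile ranks, at the cut of 15 points, and 13 with log2(level + 1), and 0 turned round. Leaving out a high light library cannot lose a call, because a call needs both libraries. All 16 lists with a median past 2-fold in both libraries kept its sign in every setting on the log2 scale, and 9 stayed past 2-fold in all of them. The depth of high light library 2 is unknown, and genes listed at 0 in low light have no difference. No paired analysis was possible because WT low light has 1 library and shares fewer than 2 replicate numbers with WT high light.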
